A study of Mus musculus with 20 samples.

Results

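High CHIR was set against low CHIR in nephron progenitor cells (NPCs) without α-catenin, in 4 of the 20 samples of the series. The members were chosen by the sample labels: 2 samples in low CHIR and 2 in high CHIR, each pair with 1 date in its titles and here called replicate 1 or replicate 3, for the first and the third of 3 dates in the series. The titles do not say which step was done on that date. All samples were primary mouse NPCs of the genotype Cas9-eGFP, isolated from embryonic kidney and cultured, so the control samples also carried Cas9. The cells were transfected with a single guide RNA (sgRNA) and with *mCherry* mRNA, kept for a knockout (KO) period of 48 h, and then held for 24 h in 1.25 µM (low CHIR) or 5 µM (high CHIR) CHIR99021, an inhibitor of GSK3 that imitates a Wnt signal. mCherry+ cells were sorted for bulk mRNA sequencing. The groups compared were α-catenin KO (sgRNA against *Ctnna1*), CTRL (sgRNA against GFP, 3 samples in each CHIR level), QCKO (sgRNAs against the cadherin genes *Cdh2*, *Cdh3*, *Cdh4* and *Cdh11*, 2 samples each) and β-catenin KO (sgRNA against *Ctnnb1*, 3 samples each). A KO sample is a sorted population that received the guide, not a clone, so it can hold cells with different edits or none.

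α-catenin ties the complex of a classical cadherin and β-catenin to the actin cytoskeleton. β-catenin has a further role in the nucleus, where it works with the TCF/LEF factors to switch on Wnt target genes, and GSK3 inhibition keeps it from being degraded. In the kidney, NPCs renew themselves under low Wnt input, while stronger input starts nephron formation, in which *Six2*-type progenitor genes are lost, genes of the forming renal vesicle appear and the mesenchymal cells aggregate into an epithelium. The question behind the comparison was how much of the transcriptional answer to high CHIR takes place without the adhesion partner of β-catenin.

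The labelled cell type was checked in the low CHIR samples. All 9 self-renewal genes with a symbol were present there, from *Foxc2* at 68 and 84.9 normalized counts up to *Eya1* at 4534 and 3704 and *Cited1* at 5229 and 3369. Normalized counts are read counts divided by a size factor of the library. The read totals were 23738955 and 23927818 for the low CHIR samples, 18379613 and 20688637 for the high CHIR samples, and 18124772 to 28472412 across the series. *Ctnna1*, the targeted gene, stood at 3599 and 3790.2 normalized counts in low CHIR against 3564 and 3622 in high CHIR (replicates 1 and 3, in that order here and below). The 16 samples of the other groups lay between 5817 and 11092, so no α-catenin KO sample overlapped any of them. Between the CHIR levels *Ctnna1* differed by −0.04 ± 0.17 on the log2 scale (adjusted p = 0.95).

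High CHIR changed 1186 of 16516 genes in α-catenin KO. Of these, 653 were higher (3.95% of genes tested) and 533 lower (3.23%), together 7.18%. A gene was called at a Benjamini-Hochberg adjusted p under 0.05 in limma's moderated test, blocked by the date in the titles, and an absolute log2 fold change over 0.5 on log2(normalized count + 1). Without the date as a block 725 genes were called, 396 higher and 329 lower. With the 4 α-catenin KO samples alone in the fit 2954 were called. Without the low CHIR sample of replicate 1 or 3 the numbers were 467 and 603, and without the high CHIR sample of replicate 1 or 3 they were 537 and 617, with fewer samples in each of these fits. Of the 1186 called genes, 1046 changed by more than 1 on the log2 scale, 573 by more than 2 and 59 by more than 5, and of these last 44 rose. Fold changes on this scale understate the change of genes with few reads.

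Every called gene moved the same way on both dates, as did 11253 of the 16516 genes tested. In 1156 of the called genes the 2 high CHIR samples did not overlap the 2 low CHIR samples, and this held for 48.1% of all genes tested, so with 2 samples a side it says little by itself. An exact permutation test of 2 against 2 samples cannot go below p = 0.33, and the p-values here come from the fit across all genes. Across the 10805 genes with a mean of at least 100 normalized counts, the change on the first date and that on the third correlated with a Pearson r of 0.833 (0.702 over all tested genes). This r is across genes, which are not independent replicates. The genes called higher rose by a median of 2.21 on the first date and 1.91 on the third, and those called lower fell by a median of 1.75 and 1.79.

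**Figure D1:**
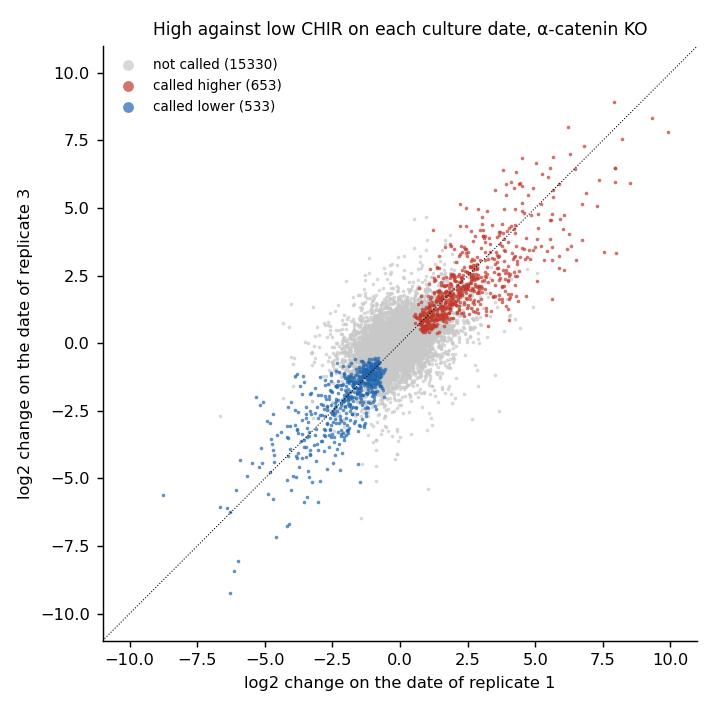
Log2 change from low to high CHIR in α-catenin KO on the date of replicate 1 (x axis) and of replicate 3 (y axis), 1 point per gene tested, with equal changes on the dotted line. The 653 genes called higher (red) and 533 called lower (blue) lie in the upper right and lower left corners, while the 15330 genes not called (grey) surround the origin.

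Gene symbols were available for 3924 of the 16516 genes. They were paired with gene identifiers only in the tables of comparisons, and those tables list genes that differed in at least 1 comparison of the study. These comparisons include low against high CHIR in CTRL, so genes that respond to high CHIR are favoured among those with a symbol. Among genes with a symbol 23.5% were called, against 7.18% of all genes, so the counts of list members below are to be read against 23.5%. The 24 gene lists used below hold 509 genes, of which 160 had a symbol and 159 passed the filter on low values. List members without a symbol were not analysed here, and a measured member below is one with a symbol that passed the filter. The median log2 fold change was 0.06 over tested genes with a symbol and 0.01 over all genes. Of the genes without a symbol, 182 were called higher and 81 lower. The strongest of them were ENSMUSG00000063727 (0 and 0.85 normalized counts in low CHIR, 33.5 and 49.4 in high CHIR) and ENSMUSG00000047228 (1.72 and 5.09 against 39.9 and 356) on the rising side. On the falling side stood ENSMUSG00000074971 (222 and 22.1 against 11.6 and 1.01) and ENSMUSG00000101356 (12.9 and 36.5 against 0 and 3.03).

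All 9 measured self-renewal genes, from a list of 16, fell in high CHIR, with a median log2 fold change of −4.02. These genes keep NPCs undifferentiated or mark that state. *Six2*, the transcription factor that maintains the progenitor pool, was at 1468 and 1384 normalized counts in low CHIR against 41.2 and 63.5 in high CHIR, a log2 fold change of −4.77 ± 0.33 (SE, n = 2 samples at each CHIR level, as for all values below, adjusted p = 9.8e-06). *Meox2*, a homeobox gene of the progenitors, went from 2725 and 1431 to 30.9 and 20.2 (−6.25 ± 0.46, adjusted p = 1.4e-05). Both genes lost nearly all of their transcripts on both dates. *Osr1*, a factor of the early kidney mesenchyme, had 1012 and 1017 normalized counts in low CHIR against 64.4 and 33.3 in high CHIR. *Cited1*, which marks the least committed progenitors, had 5229 and 3369 in low CHIR against 384 and 339.9 in high CHIR (−3.54 ± 0.36, adjusted p = 0.00012). The smallest falls were those of *Eya1*, a cofactor gene of progenitor transcription factors (4534 and 3704 against 873 and 481), and *Wt1*, which podocyte precursors also use (995 and 1074 against 188 and 209.8). These last kept a larger share of their transcripts than the others (−2.66 ± 0.27 for *Eya1* and −2.37 ± 0.19 for *Wt1*). *Crym*, *Tmem100* and *Foxc2* fell by 4.02, 4.16 and 3.66 on the log2 scale. Without the low CHIR sample of replicate 1, *Foxc2* was no longer called (adjusted p = 0.051), and the other 8 were called whichever sample was left out. In bulk samples, fewer cells of a type and less RNA per cell cannot be told apart.

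Of 9 measured genes of nephron induction, from a list of 16, 7 rose, 1 fell and 1 was not called. Their median log2 fold change was 3.85. *Wnt4*, the Wnt ligand that drives the transition to an epithelium, had 43.9 and 123 normalized counts in low CHIR against 5212 and 5849 in high CHIR (6.21 ± 0.33, adjusted p = 5.1e-06). *Lhx1*, a homeobox gene of the renal vesicle, had 14.6 and 111 in low CHIR against 1645 and 1585 in high CHIR (5.27 ± 0.83, adjusted p = 0.0024). Low CHIR levels of both were higher on the third date than on the first, while the high CHIR levels were nearly equal. *Emx2*, another homeobox gene of the nephron lineage, was also higher on the third date in low CHIR, with 12 and 109 normalized counts, and had 634 and 1313 in high CHIR (4.59 ± 0.66). *Jag1*, the Notch ligand of the distal and medial renal vesicle, rose from 218 and 899.6 to 5316 and 7704 (3.85 ± 0.56, adjusted p = 0.0014). Of the remaining members called higher, *Ovol1* rose by 3.54 and *Pax2*, which both progenitors and nephrons use, by 1.69. *Bmp2* had 79.1 and 100.1 normalized counts in low CHIR against 191 and 134 in high CHIR and was not called (adjusted p = 0.32). *Hes1*, a Notch target, fell from 860.3 and 883 to 222 and 233 (−1.93 ± 0.26, adjusted p = 0.00082). With 1 sample left out, 5 to 7 members were called higher. *Lhx1* lost its call without either sample of replicate 1 (highest adjusted p = 0.055), where the log2 fold change was lowest at 4.26, and *Pax2* kept it only without the high CHIR sample of replicate 3 (highest adjusted p = 0.16). In the low CHIR samples, 6 of the 7 induced genes were higher on the third date than on the first, against 8230 of 16516 genes tested.

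**Figure D2:**
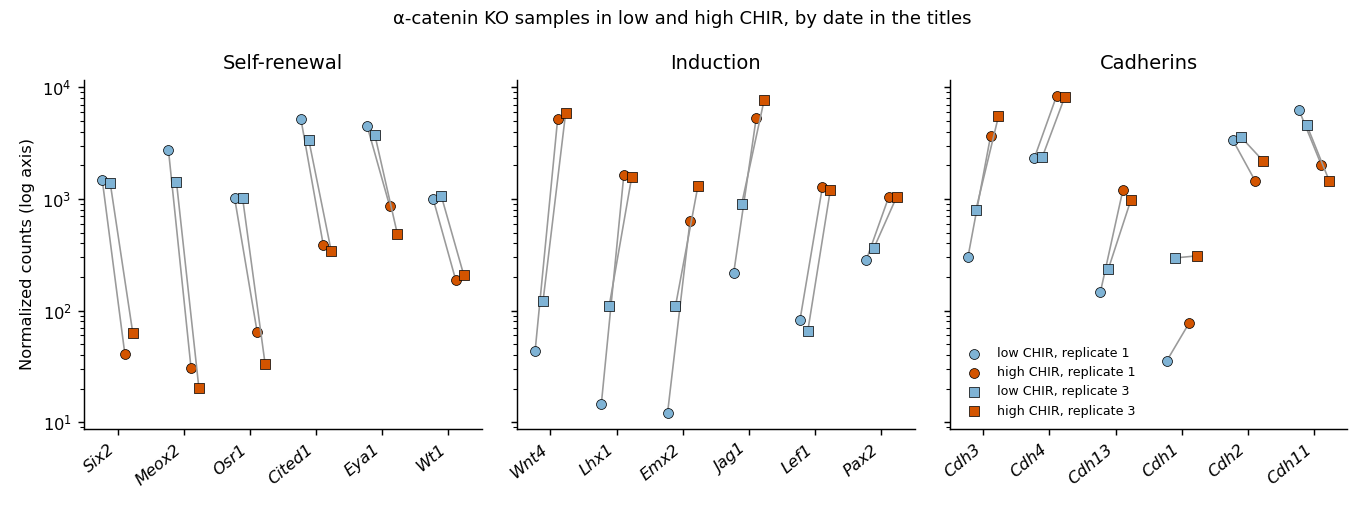
Normalized counts (log axis) of self-renewal genes, induction genes and cadherins in the 4 α-catenin KO samples, with circles for replicate 1, squares for replicate 3, blue for low CHIR, orange for high CHIR and a line joining the samples of 1 date. All 6 self-renewal genes fell and all 6 induction genes rose on both dates, whereas *Cdh1* lay farther apart between the dates than between the CHIR levels.

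Feedback genes and transcription factors of the Wnt pathway split, with 5 of 13 measured members called higher, 5 called lower and 3 not called (median log2 fold change −0.90). The rising members were targets and effectors. *Notum*, which encodes an enzyme that inactivates Wnt ligands, went from 1.72 and 1.7 normalized counts to 211 and 342 (6.64 ± 0.39, adjusted p = 5.7e-06). *Lef1*, a nuclear partner of β-catenin, had 81.7 and 66.2 normalized counts in low CHIR against 1279 and 1204 in high CHIR (4.06 ± 0.24, adjusted p = 5.9e-06). The samples of each CHIR level lay close together for *Lef1*, and the change differed between the dates by less than the SE. *Axin2*, which encodes a scaffold of the β-catenin destruction complex, had 42.2 and 56 in low CHIR against 413 and 490.1 in high CHIR (3.19 ± 0.23). The high CHIR level of *Axin2*, as of *Notum*, was above both low CHIR samples on each date. *Sp5*, a direct Wnt target and transcriptional repressor, rested on 2 reads in low CHIR and 89 in high CHIR, a ratio of 58.9 with an exact 95% interval of 15.8 to 494 for counting error only. *Tcf7*, another partner of β-catenin, rose by 1.04 (adjusted p = 0.017). Among the falling members, *Tcf7l1*, a TCF factor that mostly represses, went from 2101 and 1712 to 765 and 611 (−1.47 ± 0.18, adjusted p = 0.0004). *Frzb*, a secreted Wnt antagonist, went from 1527 and 1298 to 359 and 108 (−2.83 ± 0.41), and *Dkk2*, an antagonist of the Lrp coreceptors, from 205 and 67 to 33.5 and 9.08 (−2.67 ± 0.40). *Frzb* and *Dkk2* were lower on the third date at both CHIR levels. *Dkk3* and *Lgr5* fell by 1.31 and 1.28. *Tcf7* and *Lgr5* lost their call whichever of the 4 samples was left out (adjusted p 0.076 to 0.18 and 0.069 to 0.45), and *Dkk3* lost it without either sample of replicate 3 (highest adjusted p = 0.080). The list then had 4 members called higher and 3 to 4 called lower, and without the date as a block 5 higher and 2 lower. With the β-catenin KO samples added to the fit (all 20 samples) 2 were called higher, *Notum* and *Lef1*, and 6 lower, so that *Axin2*, *Sp5* and *Tcf7* lost their call.

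Promoter windows were read from RefSeq (GRCm38.p6) to see whether the letters bound by TCF/LEF factors stand near the start of these genes. Each window holds 250 bases before and 50 after a gene's start, and CTTTGAA and CTTTGAT were searched on both strands. Of 27025 genes with a window 9.88% held a match. The share was 9.48% of the 327 genes called higher that matched a window by symbol, 5.36% of the 317 called lower and 7.4% of the 1893 tested and not called. These shares are descriptions and name no bound site. Among the 20 called members of the self-renewal, induction, Wnt and cadherin lists with a window, *Sp5* alone held a match, 104 bases before the start on the gene's own strand. The windows of *Sp5* (chr2:70474673-70474972, plus strand), of *Wnt4*, the induced ligand (chr4:137277385-137277684, plus strand), and of *Six2*, the lost progenitor factor (chr17:85688205-85688504, minus strand), are shown 5′ to 3′ with the match in capitals.
Sp5: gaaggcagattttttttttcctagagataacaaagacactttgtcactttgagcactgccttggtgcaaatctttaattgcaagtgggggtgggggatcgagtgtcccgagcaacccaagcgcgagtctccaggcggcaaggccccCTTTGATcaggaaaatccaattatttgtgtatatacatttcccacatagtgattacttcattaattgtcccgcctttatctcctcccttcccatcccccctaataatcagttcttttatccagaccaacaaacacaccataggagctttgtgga
Wnt4: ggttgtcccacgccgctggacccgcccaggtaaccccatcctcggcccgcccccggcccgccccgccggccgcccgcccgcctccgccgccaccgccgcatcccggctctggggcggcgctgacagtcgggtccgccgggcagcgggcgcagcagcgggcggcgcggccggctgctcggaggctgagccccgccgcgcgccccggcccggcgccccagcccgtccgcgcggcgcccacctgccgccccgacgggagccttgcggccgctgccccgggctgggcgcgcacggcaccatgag
Six2: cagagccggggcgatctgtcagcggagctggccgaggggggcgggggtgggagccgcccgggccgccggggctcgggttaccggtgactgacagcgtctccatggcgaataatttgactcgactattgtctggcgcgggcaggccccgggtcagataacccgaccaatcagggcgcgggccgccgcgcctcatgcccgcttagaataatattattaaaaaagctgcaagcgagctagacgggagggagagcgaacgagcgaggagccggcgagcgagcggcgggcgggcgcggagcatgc

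Of 14 measured Wnt ligands and receptors, 3 rose and 6 fell (median log2 fold change −0.76), and the Frizzled receptors did not move together. *Fzd6* went from 12 and 47.5 normalized counts to 446 and 933 (4.68 ± 0.44, adjusted p = 7.7e-05), and *Fzd10* from 1.72 and 2.55 to 42.5 and 46.4 (3.87 ± 0.61). In the opposite direction *Fzd4* went from 993 and 1002 to 96.6 and 92.8 (−3.38 ± 0.34, adjusted p = 0.00011). *Fzd2* fell by 1.03 and *Fzd8*, with few reads, by 2.58. *Rspo1*, which encodes a secreted enhancer of Wnt signalling, had 112 and 121 normalized counts in low CHIR against 5.15 and 10.1 in high CHIR (−3.83 ± 0.63, adjusted p = 0.0032). Its receptor gene *Lgr4* fell by 0.92 and the coreceptor gene *Lrp6* by 0.93. *Fzd1*, *Fzd3*, *Ror1*, *Ror2* and *Wnt5b* were not called, with log2 fold changes from −1.28 for *Ror1* to 0.73 for *Wnt5b*. With all 20 samples in the fit 2 members were called higher and 6 lower, where *Fzd10* lost its call. Without the date as a block 3 were called higher and 4 lower. The 3 rising members kept their call whichever of the 4 samples was left out, and 1 to 4 of the 6 falling members were then called, *Fzd4* always among them. *Lgr4* and *Lrp6* lost their call in every such case (adjusted p 0.105 to 0.322 and 0.087 to 0.20). *Fzd2* kept it only without the low CHIR sample of replicate 3 (highest adjusted p = 0.17), *Fzd8* lost it without either sample of replicate 1 (0.14), and *Rspo1* without the low CHIR sample of replicate 1 (0.068).

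Cadherins, the adhesion receptors to which α-catenin is linked, changed in both directions, with 3 of 7 measured members higher, 2 lower and 2 not called. *Cdh3* (P-cadherin) rose from 304 and 799 normalized counts to 3632 and 5497 (3.18 ± 0.36, adjusted p = 0.00028). *Cdh4* (R-cadherin) had 2306 and 2353 normalized counts in low CHIR against 8427 and 8147 in high CHIR (1.83 ± 0.23, adjusted p = 0.00064). *Cdh13*, which encodes a cadherin anchored in the membrane without a cytoplasmic tail, rose from 146 and 236 to 1203 and 975 (2.54 ± 0.35). The 3 rising genes kept their call whichever of the 4 samples was left out. *Cdh11*, a cadherin of mesenchymal cells, fell from 6277 and 4565 to 2008 and 1443 (−1.65 ± 0.23, adjusted p = 0.0012), and *Cdh15* from 80 and 98.4 to 20.6 and 23.2 (−1.97 ± 0.48). *Cdh2* (N-cadherin) had 3378 and 3613 normalized counts in low CHIR against 1446 and 2190.4 in high CHIR, with −0.97 ± 0.39 on the log2 scale, and was not called (adjusted p = 0.2). *Cdh1* (E-cadherin) had 35.3 and 296 in low CHIR against 77.3 and 309.6 in high CHIR, with 0.59 ± 0.64 (adjusted p = 0.75). The call of *Cdh15* was lost whichever of the 4 samples was left out (adjusted p 0.10 to 0.25), and 1 cadherin was called lower without the date as a block, and also with all 20 samples in the fit. For *Cdh1* the groups overlapped, and each sample of the third date was above both samples of the first.

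Of the catenins and actin linkers, 4 had a symbol. *Ctnnd2*, which encodes δ-catenin, a binder of the cadherin tail, rose from 30.1 and 17 normalized counts to 325 and 367 (3.87 ± 0.51, adjusted p = 0.00073). *Ctnnal1*, a relative of α-catenin, rose from 676 and 1189 to 1672 and 1844 (0.97 ± 0.21, adjusted p = 0.015). *Actn4*, which encodes an actin crosslinker, was not called (3033 and 4697 against 3773 and 4283), nor was *Ctnna1*. *Ctnnb1* was not analysed here. Of 5 measured genes of desmosomes and tight junctions, *Dsc2*, which encodes a desmosomal cadherin, rose from 8.6 and 8.49 to 138 and 76.6 (3.44 ± 0.50), and *Marveld2*, which encodes tricellulin, from 9.46 and 79.8 to 119.8 and 269 (2.64 ± 0.54). *Pkp4*, a plakophilin gene, fell by 0.99. *Cldn1* and *Cldn3* were not called, and *Cldn3* differed between the dates (10.3 and 123 in low CHIR against 10.3 and 168 in high CHIR). Of 4 measured polarity genes, *Patj*, which encodes a scaffold of the apical Crumbs complex, rose from 187 and 299 to 442 and 646 (1.17 ± 0.25), while *Dlg1*, *Llgl2* and *Krt8* were not called. *Ctnnal1*, *Marveld2*, *Pkp4* and *Patj* kept their call only without the low CHIR sample of replicate 3, and lost it without any other of the 4 (highest adjusted p 0.25, 0.20, 0.13 and 0.22). Without the date as a block, 1 of the catenins and linkers and 1 gene of desmosomes and tight junctions were called higher. With the 4 samples alone in the fit all 4 polarity genes were called higher.

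Mesenchymal transition factors fell or were not called, with 3 of 5 lower and a median log2 fold change of −1.53. *Snai2*, a repressor of epithelial genes, went from 3657 and 2482 normalized counts to 693 and 355 (−2.60 ± 0.22, adjusted p = 3.4e-05). *Zeb1*, a repressor of the same kind, went from 1918 and 1577 to 499.8 and 170.4 (−2.57 ± 0.34), and *Foxc1* fell by 1.53. *Snai1* (345 and 436 against 676 and 349) and *Vim* (20341 and 17018 against 16095 and 10856) were not called. In the Hippo list 2 of 8 fell, *Amot* by 1.86 and the receptor tyrosine kinase gene *Axl* by 1.79, a share near that of all genes with a symbol. *Amot* lost its call without either sample of replicate 1 (highest adjusted p = 0.082), *Foxc1* kept it only without the high CHIR sample of that replicate (0.25), and without the date as a block 1 gene of the Hippo list was called. The YAP target *Ccn1* had 926 and 782 normalized counts in low CHIR against 1096 and 763 in high CHIR (adjusted p = 0.96).

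**Figure D3:**
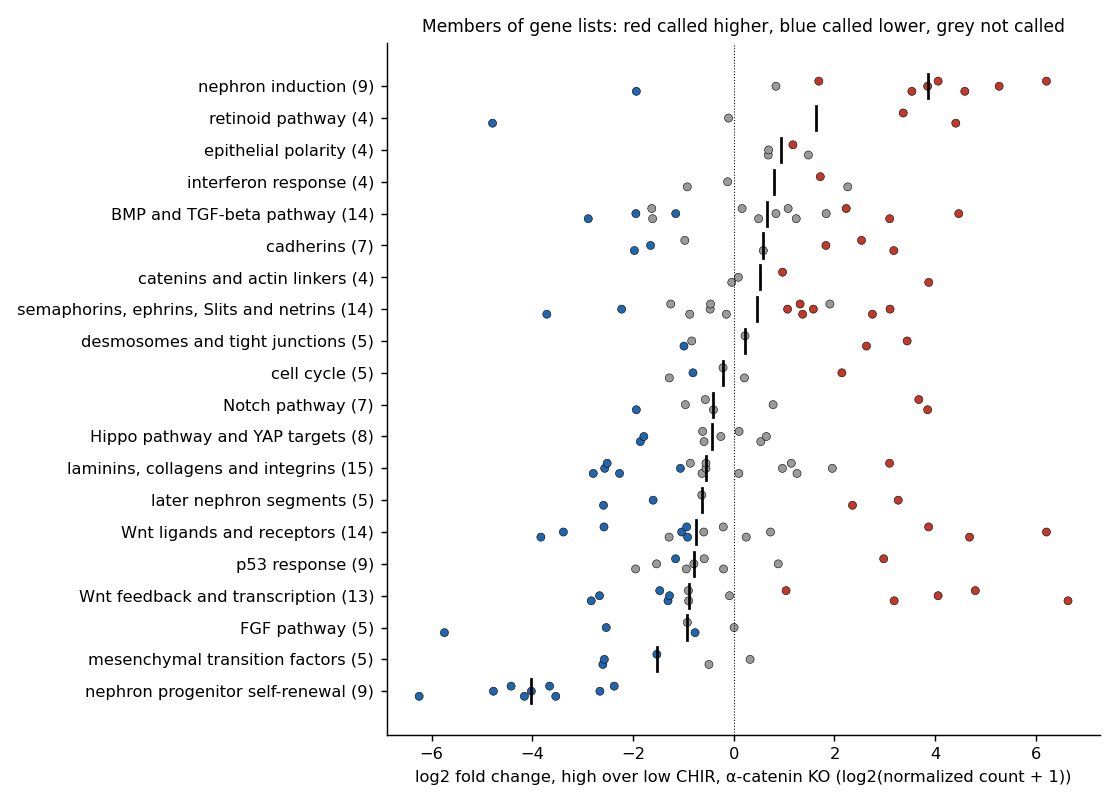
Log2 fold change of high over low CHIR in α-catenin KO (x axis) for the tested members of each list with at least 4 of them (number in brackets), with red for called higher, blue for called lower, grey for not called and a black bar at the list's median. The self-renewal list lies wholly below 0 and the induction list has 1 called member below 0, while the Wnt, cadherin, BMP and guidance lists hold called members on both sides.

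In the Notch list, 2 of 7 members rose and 1 fell. Beside *Jag1* and *Hes1*, *Heyl*, a Hairy-related repressor that Notch induces, rose from 30.1 and 82.3 normalized counts to 1037 and 406 (3.67 ± 0.72, adjusted p = 0.0088). The receptor gene *Notch2* had 4326 and 3946 in low CHIR against 2084 and 2160.2 in high CHIR and was not called (adjusted p = 0.23). In the FGF list 3 of 5 fell and none of the others was called. *Fgf1*, a ligand gene, went from 1986 and 1758 to 28.3 and 40.3 (−5.75 ± 0.42, adjusted p = 1.4e-05). *Etv1*, an ETS factor that FGF signalling induces, went from 2332 and 1841 to 415 and 308 (−2.53 ± 0.22), and *Spry1*, a feedback inhibitor, fell by 0.77 (adjusted p = 0.045). *Heyl* lost its call without either sample of replicate 1 (highest adjusted p = 0.15), where its log2 fold change was lowest at 2.70, and *Spry1* lost it whichever of the 4 samples was left out (adjusted p 0.14 to 0.37).

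Of 14 measured genes of the BMP and TGF-β pathways, 3 rose and 3 fell. The ligand gene *Bmp7* rose from 17.2 and 66.2 normalized counts to 613 and 974 (4.47 ± 0.52, adjusted p = 0.00031). The receptor gene *Bmpr1b* rose from 109 and 211 to 1379.6 and 1239 (3.10 ± 0.37), and *Id4*, of a family of BMP targets, by 2.23. Without the date as a block, and also with all 20 samples in the fit, 2 genes were called higher. *Bmpr1b* and *Id4* each lost their call in 1 of these fits. *Bmper*, which encodes a secreted BMP binder, fell from 6369.8 and 4818 to 1047 and 532 (−2.89 ± 0.26, adjusted p = 6.3e-05). The TGF-β-induced gene *Tgfbi* fell by 1.94 and the receptor gene *Tgfbr2* by 1.15. *Tgfbr2* kept its call only without the high CHIR sample of replicate 3 (highest adjusted p = 0.10). *Id2*, the most abundant member, had 34254 and 31116 normalized counts in low CHIR against 43092 and 31124 in high CHIR and was not called (adjusted p = 0.85).

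Of 4 measured retinoid genes 1 fell and 2 rose. *Rdh10*, which encodes the enzyme for the first oxidation of retinol, went from 2579 and 2268 normalized counts to 91.5 and 81.7 (−4.79 ± 0.31, adjusted p = 8.5e-06). *Aldh1a3*, which encodes an enzyme that makes retinoic acid, went from 361 and 234 to 5235 and 7351 (4.41 ± 0.30, adjusted p = 9.7e-06). *Crabp2*, which encodes a retinoic acid carrier, rose from 92.1 and 133 to 631 and 2098 (3.37 ± 0.54), and *Rara* was not called. *Crabp2* lost its call without the high CHIR sample of replicate 3 (adjusted p = 0.052). For these 3 genes the samples of the CHIR levels did not overlap.

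Among 14 measured guidance genes, 6 rose and 2 fell. *Robo2*, a Slit receptor gene, fell from 6573 and 4741 normalized counts to 648 and 278 (−3.71 ± 0.29, adjusted p = 2.5e-05), whereas its paralogue *Robo1* rose by 1.37. The ligand gene *Slit2* rose from 527 and 612 to 1475 and 1959.5 (1.58 ± 0.18, adjusted p = 0.00029). *Epha4*, an ephrin receptor gene, rose from 267 and 463 to 2523 and 2235 (2.75 ± 0.39), *Sema5b* by 3.10, *Plxnb1* by 1.32 and *Efnb2* by 1.07. *Plxna4* fell by 2.23. *Epha4*, *Slit2* and *Robo2* kept their call whichever sample was left out, whereas *Robo1*, *Sema5b*, *Plxnb1* and *Efnb2* lost it in every such case (adjusted p 0.066 to 0.27). *Plxna4* kept it only without the high CHIR sample of replicate 1 (highest adjusted p = 0.20). With 1 sample left out 2 guidance genes were called higher and 1 to 2 lower, and without the date as a block 3 and 1.

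Of 15 measured genes of laminins, collagens and integrins, 1 rose and 5 fell. *Col18a1*, which encodes a collagen of basement membranes, rose from 69.7 and 219.8 normalized counts to 868 and 1308 (3.09 ± 0.31, adjusted p = 0.00011). *Nid2*, which encodes a nidogen that joins laminin to collagen, went from 4657 and 5229.5 to 1038 and 489 (−2.79 ± 0.62). The integrin genes *Itga9* and *Itga4* fell by 2.51 and 2.56, *Frem1* by 2.27 and *Col4a6* by 1.06. With 1 sample left out, 1 to 2 members were called higher and 2 to 3 lower. *Itga4* kept its call only without the high CHIR sample of replicate 3 (highest adjusted p = 0.26) and *Nid2* only without the low CHIR sample of replicate 1 (0.21). *Frem1* lost it without either sample of replicate 3 (0.11) and *Col4a6* without either sample of replicate 1 (0.23).

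In the lists of proliferation and stress genes, 2 of 5 cell cycle genes, 2 of 9 p53 targets and 1 of 4 interferon genes were called, against 23.5% of genes with a symbol. Of 5 measured cell cycle genes, *Ccnd2*, which encodes cyclin D2, rose from 8257 and 5190.5 normalized counts to 39508 and 21279 (2.15 ± 0.18, adjusted p = 3.1e-05), and the inhibitor gene *Cdkn1b* fell by 0.81. *Pcna* (5836 and 6808 against 8426 and 6327), *Birc5* and *Myc* were not called. Of 9 measured p53 targets, *Pmaip1* rose from 23.2 and 185 to 502 and 555 (2.98 ± 0.63), *Ccng1* fell by 1.16 and 7 were not called, among them *Cdkn1a* (1136 and 2029 against 2969 and 2643, adjusted p = 0.2). Of 4 interferon genes, *Irf7* rose from 35.3 and 54.3 to 165 and 130.1. The calls of *Irf7* and *Cdkn1b* were lost whichever of the 4 samples was left out (adjusted p 0.061 to 0.25 and 0.082 to 0.36). *Pmaip1* lost its call without either sample of replicate 1 (highest adjusted p = 0.19), where its log2 fold change was lowest at 1.70, and *Ccng1* kept it only without the high CHIR sample of that replicate (0.31). Of the 9 p53 targets 7 were lower on both dates, against 1487 of 3924 tested genes with a symbol. Their median log2 fold change was −0.79, and the number of p53 targets called lower depended on the fit. It was 2 with edgeR, 3 with all 20 samples in the fit, 4 with DESeq2 and 6 with the 4 samples alone, where 2 were called higher.

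Few markers of later nephron segments and of other kidney cells had a symbol. *Gata3*, a gene of the distal nephron and ureteric tree, rose from 73.1 and 33.9 normalized counts to 340.1 and 702 (3.27 ± 0.59), and *Papss2* from 47.3 and 219 to 345 and 806. *Tcf21*, a factor of mesenchyme and podocytes, fell from 3616 and 4309 to 926 and 465 (−2.59 ± 0.45), and *Sox9* fell by 1.60. Of the ureteric markers, *Hoxb7* rose from 225 and 333 to 621 and 815 (1.38 ± 0.22), *Krt7* was at 2.58 and 90.8 in low CHIR against 10.3 and 51.4 in high CHIR (adjusted p = 0.88), and *Wnt11* was at 0 and 2.55 and then 9.02 and 5.04, under the filter of a mean of 10. The summed level of these 3 of 12 ureteric markers was 227 and 426 in low CHIR against 640.2 and 871 in high CHIR. In CTRL it was 226 to 488.5 in low CHIR and 586 to 751.5 in high CHIR. The stromal marker *Meis1*, which NPCs also express, fell by 0.99. *Tek*, an endothelial receptor gene, rose from 5.16 and 7.64 to 92.7 and 383 (4.70 ± 0.76). *Gata3* and *Tcf21* lost their call without either sample of replicate 3 (highest adjusted p 0.092 and 0.080), and *Papss2* and *Sox9* without either sample of replicate 1 (0.11 and 0.079). *Tek* lost it without the high CHIR sample of replicate 3 (0.059), *Hoxb7* without the low CHIR sample of replicate 1 (0.053) and *Meis1* whichever sample was left out (0.13 to 0.17). *Tek* and *Meis1* were the only markers with a symbol among 10 of endothelium and 12 of stroma, and none of 10 leukocyte markers had one. The part of such cells in these values was not tested.

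Of the 89 list members called, 47 kept their call whichever of the 4 samples was left out, among them *Six2*, *Meox2*, *Osr1*, *Wnt4*, *Lef1*, *Jag1*, *Notum*, *Cdh3*, *Cdh4*, *Snai2*, *Fgf1* and *Rdh10*. For 42 the call was lost when at least 1 of the samples was left out, and for 13 of these whichever it was. All 42 kept their direction.

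Several of the largest changes lay in genes that were nearly silent at 1 CHIR level. *Serpinb7*, *Ntsr2*, *Krt39*, *Sp5* and *Ntsr1* had at most 3 reads in all at that level. *Serpinb7*, which encodes a serine protease inhibitor of the serpin family, was listed at 0 and 0.85 normalized counts in low CHIR against 959.6 and 416 in high CHIR (1 read against 1157). *Ntsr2*, a neurotensin receptor gene, had 0 and 0.85 in low CHIR against 641 and 593 in high CHIR. From pooled reads the ratio was 1532 (exact 95% interval 274 to 60557) for *Serpinb7* and 1438 (258 to 56844) for *Ntsr2*, for counting error only. *Krt39*, a keratin gene, had 0 reads in low CHIR against 295 and 187 normalized counts in high CHIR, at least 183-fold higher against a floor of 3 reads over the group.

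The neurotensin receptor genes went in opposite directions. *Ntsr1* had 252 and 681 normalized counts in low CHIR against 2.58 and 1.01 in high CHIR, a ratio of 276 downwards (exact 95% interval 94.2 to 1340.1 from 1096 and 3 reads). The keratin gene *Krt23* rose from 2.58 and 0.85 to 857 and 898 (8.41 ± 0.67, adjusted p = 2.6e-05). *Cthrc1*, which encodes a secreted glycoprotein, reached the highest level in high CHIR among the 12 genes that rose most, from 25.8 and 95.1 to 6681 and 8661 (7.23 ± 0.47, adjusted p = 8.7e-06). *Sv2b*, of the synaptic vesicle proteins, *Psd2*, and *Sptlc3*, a subunit of the enzyme that starts sphingolipid synthesis, rose by 7.21, 7.11 and 7.05. The predicted genes *Gm10522* and *Gm50405* rose by 7.23 and 6.95. *Notum* and *Wnt4*, given above, were the others of the 12. For each of these genes both high CHIR samples lay above both low CHIR samples, as the rule for naming them required.

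On the falling side *Il33*, which encodes an interleukin held in the nucleus, went from 24325 and 7345 normalized counts in low CHIR to 313 and 11.1 in high CHIR (−7.76 ± 0.73, adjusted p = 7.7e-05). Its mean level in low CHIR was above that of any other falling gene named here, and the third date was below the first at both CHIR levels. *Ch25h*, which encodes cholesterol 25-hydroxylase, went from 1447 and 804 to 21.9 and 2.02 (−7.02 ± 0.76). *Nell1* went from 1716 and 2326 to 69.6 and 15.1, and *Hpgd*, which encodes a prostaglandin-degrading enzyme, from 489 and 827 to 18 and 14.1. *CJ186046Rik*, *Iigp1*, *BC030500* and *Nxph1* fell by 7.19, 5.46, 5.10 and 4.95 on the log2 scale. The call of *Nxph1* was lost in 4 of the 13 alternatives run for it, and that of the others in 0. *Meox2*, *Fgf1* and *Rdh10*, described above, were also among the 12 strongest falls.

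Some called genes answered with very different sizes on the 2 dates. The widest gaps among called genes with a symbol and a mean of at least 100 were those of *Lhx1os*, *Ctxn3*, *CJ186046Rik*, *Gfra2* and *E330013P04Rik*. The call was lost in 3 of 14 alternatives for *Gfra2*, 2 for *Ctxn3*, 1 for *Lhx1os* and 0 for the others. *Lhx1os*, a transcript next to *Lhx1*, had 0.86 and 60.3 normalized counts in low CHIR against 477 and 616 in high CHIR, so its change was 8.00 on the first date and 3.33 on the third. The library kit does not mark strand, so reads of overlapping antisense genes cannot be told apart. *Ctxn3* changed by 7.55 and 3.37, and *E330013P04Rik* by 6.49 and 3.09. These 3 genes were higher in low CHIR on the third date, at 23.8 against 0 normalized counts for *Ctxn3* and 161 against 7.74 for *E330013P04Rik*. In the low CHIR samples of CTRL the first date was also the lowest for all 3, with 7.14, 50.9 and 92.1 for *Lhx1os* in replicates 1, 2 and 3. *Gfra2*, a coreceptor gene for GDNF-family ligands, differed more in high CHIR (308 and 425 in low CHIR against 109 and 11.1 in high CHIR). Over the 653 genes called higher, 448 had a higher low CHIR value on the third date, against 8230 of all 16516 tested, and 382 had a higher high CHIR value on that date, against 8020. Over the 533 called lower these numbers were 186 and 191. *Krt8*, a keratin gene of simple epithelia that was not called, was at 84.3 and 482 in low CHIR against 229 and 466 in high CHIR. What set the dates apart was not tested.

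The response of α-catenin KO was next set against that of CTRL, by the difference of the log2 fold changes in the same fit. No gene was called (0% of 16516), 427 had an unadjusted p under 0.05 in limma, and the smallest adjusted p was 0.96. edgeR and DESeq2 on the recovered reads also called 0 genes, and each had 400 at an unadjusted p under 0.05. The 95% interval of a difference reached a median of 0.90 to each side. For a typical gene a smaller difference would thus not reach an unadjusted p under 0.05 in limma. A call by the adjusted p needed a larger difference, so 0 calls do not exclude differences above 0.90. The count stayed at 0 with CTRL samples of the dates of α-catenin KO only, an alternative added after seeing the data. Of the 1186 genes that responded, 309 had an interval wholly within 1 of 0. For *Six2* the difference was −0.58 (95% interval −1.51 to 0.36), for *Wnt4* −0.12 (−1.07 to 0.82), for *Lef1* −0.03 (−0.72 to 0.66) and for *Cdh4* −0.01 (−0.68 to 0.65).

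Of 159 tested list members, 11 had an interval against CTRL that left out 0, as did 427 of all 16516 genes tested. None passed the adjusted test, so the values below do not show a difference for any single gene. Of the 11 members, 9 lay above 0 and 2 below. *Cdh1* differed by 2.54 (0.73 to 4.35, adjusted p = 0.96). It had 77.3 and 309.6 normalized counts in high CHIR in α-catenin KO, against 24.9, 34.2 and 50.2 in CTRL. The low CHIR samples of CTRL had 34.8, 448 and 167 in replicates 1, 2 and 3, a wider spread than between the low CHIR samples of α-catenin KO. The keratin genes *Krt7* and *Krt8*, which also mark epithelia, had differences of 4.10 (1.72 to 6.49) and 1.90 (0.19 to 3.61), with *Krt7* at most at 1.57 in high CHIR in CTRL. *Notum* differed by 1.90 (0.79 to 3.01), with 211 and 342 normalized counts in high CHIR against 102, 312 and 125 in CTRL. In low CHIR it had 1.72 and 1.7, against 3.57, 6.5 and 5.29 in CTRL. *Tgfbi* fell less than in CTRL, by a difference of 1.36 (0.54 to 2.18). *Fzd8* differed by −2.18 (−3.58 to −0.78), with 1.29 and 3.03 normalized counts in high CHIR against 11.3, 10.7 and 9.4 in CTRL. In α-catenin KO, *Notum* in low CHIR and *Fzd8* in high CHIR had at most 3 reads per sample. Both differences thus depend on the pseudocount. *Ror2*, *Itgb4*, *Plk2*, *Tgfb2* and *Bmp2* made up the rest, with differences between −1.52 and 1.53.

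QCKO targets the cadherins and not α-catenin, and its response was compared in the same way. No gene was called (0%), 126 had an unadjusted p under 0.05 in limma, 132 in edgeR and 105 in DESeq2, where again 0 genes were called. The median interval reached 0.99 to each side, and 317 of the 1186 responding genes had an interval within 1 of 0. α-catenin KO and QCKO share only the third date. Differences were 0.45 (−0.58 to 1.48) for *Six2*, 0.52 (−0.52 to 1.56) for *Wnt4* and 0.82 (−0.30 to 1.95) for *Cdh3*. For *Cdh1* the difference was 0.16 (−1.83 to 2.14), with 128 and 254 normalized counts in high CHIR in QCKO. Of the 159 list members 5 had an interval that left out 0, as did 126 of all 16516 genes tested. The 5 members were *Aldh1a3* (−1.73), *Fzd8* (−1.72), *Itgb3* (−2.60), *Jag2* (1.32) and *Itgb4* (1.46), and none passed the adjusted test. *Aldh1a3* rose in both, to 5235 and 7351 normalized counts in α-catenin KO and to 6902 and 12825 in QCKO, from 361 and 234 and from 113 and 155. The comparisons with CTRL and with QCKO use the same 4 α-catenin KO samples.

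**Figure D4:**
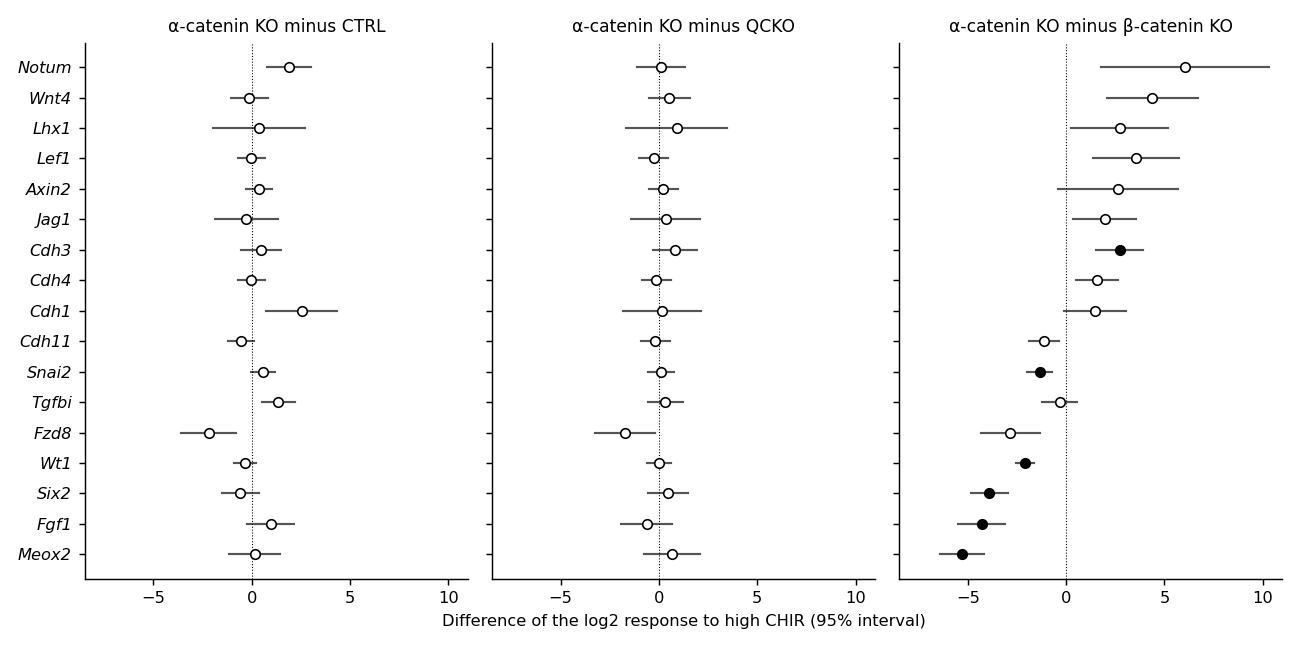
Difference of the log2 response to high CHIR between α-catenin KO and CTRL, QCKO or β-catenin KO (x axes) for 17 list members, with bars for the 95% interval and filled points for genes called. No point is filled against CTRL or QCKO, while 6 genes are called against β-catenin KO, where *Notum* at 6.04 and *Meox2* at −5.30 mark the ends.

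The β-catenin KO samples differed strongly by date. *Axin2* had 14, 559.7 and 384 normalized counts at low CHIR and 18.5, 743 and 687 at high CHIR in replicates 1, 2 and 3, against 42.2 and 56 and then 413 and 490.1 in the α-catenin KO samples of replicates 1 and 3. The first date was thus low and the others high at both CHIR levels, and *Notum* (1.07, 562 and 325 in low CHIR) followed the same split. In CTRL *Axin2* had 39.3, 71.5 and 61.4 normalized counts in low CHIR against 357, 435 and 391 in high CHIR. In low CHIR, *Axin2* in the samples labelled β-catenin KO was thus below every low CHIR sample of CTRL on the first date and above every one on the others, where replicate 2 exceeded and replicate 3 lay within the range of CTRL in high CHIR. *Notum* in those replicates 2 and 3 was above all CTRL samples of both CHIR levels (3.57, 6.5 and 5.29 in low CHIR against 102, 312 and 125 in high CHIR). *Ctnnb1* was not analysed here, so the extent of the knockout on each date was not checked, and each difference below is from the samples labelled β-catenin KO. Results below are given over all β-catenin KO samples, and then without and with only those of the first date, a choice made after seeing these values.

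The response of α-catenin KO differed from that of β-catenin KO for 158 of 16691 genes, 50 with a higher log2 fold change (0.3%) and 108 with a lower one (0.647%). Without the β-catenin KO samples of the first date 212 genes were called (95 higher, 117 lower), and with that date alone 97 (63 and 34). Without the date as a block 25 genes were called, and leaving out 1 sample gave 27 to 194. Without an α-catenin KO sample the numbers were 84 and 27 (low CHIR, replicates 1 and 3) and 77 and 81 (high CHIR). Without a β-catenin KO sample they were 194, 102 and 74 (low CHIR, replicates 1, 2 and 3) and 100, 164 and 85 (high CHIR). Of the 159 list members, 3 were called with a higher and 21 with a lower fold change, and 149 of the 158 genes had a symbol. List members all have a symbol, so the 24 of 159 (15.1%) are to be read against 3.78% of the 3939 tested genes with a symbol, 1.17% higher and 2.61% lower. All 24 kept their direction in both date splits. Without the first date 22 of the 24 were called, and with that date alone 11. Leaving out 1 sample left 10 to 22 of them called, with the lowest number without the low CHIR α-catenin KO sample of replicate 3, and 7 were called without the date as a block.

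Of the 9 self-renewal genes 8 were called, each with a more negative log2 fold change in α-catenin KO than in β-catenin KO. In β-catenin KO *Six2*, *Meox2*, *Eya1*, *Tmem100* and *Wt1* were lower in high CHIR on all 3 dates, with mean log2 changes of −0.87, −0.95, −0.88, −0.60 and −0.28. *Osr1* was higher in high CHIR on the first date and lower on the others (mean −0.21), *Crym* was higher on 2 of the 3 dates (mean 0.21) and *Foxc2* on all 3, with 87, 61 and 72.9 normalized counts at low CHIR and 112, 74.3 and 89.3 at high CHIR (mean 0.31). *Six2* had 1236, 969.5 and 773 normalized counts at low CHIR in β-catenin KO and 798, 409 and 468 at high CHIR, a difference of −3.91 (95% interval −4.84 to −2.97, adjusted p = 0.00044). *Meox2* differed by −5.30 (−6.43 to −4.18, adjusted p = 0.00025), *Osr1* by −4.22 and *Wt1* by −2.10. *Cited1* was the member not called, at −1.90 (adjusted p = 0.093). Without the first date of β-catenin KO the same 8 were called (*Six2* at −3.79 and *Meox2* at −5.15). With that date alone, and also without the date as a block, 5 were called. *Six2* (−4.14), *Meox2* (−5.60), *Osr1*, *Wt1* and *Crym* kept their call with that date alone, whereas *Eya1*, *Foxc2* and *Tmem100* did not (adjusted p 0.15, 0.14 and 0.053). The log2 fold change was also more negative in α-catenin KO for *Fgf1* (−4.30), *Etv1* (−2.14), *Rdh10* (−4.34), *Robo2* (−2.17), *Fzd4* (−3.15) and *Hes1* (−1.58). *Snai2* and *Zeb1* differed by −1.34 and −2.38, *Axl* by −1.73 and *Bmper* by −2.22. Among the Wnt antagonists and factors *Frzb* (−3.29), *Dkk2* (−3.90) and *Tcf7l1* (−1.29) were called, and in β-catenin KO *Frzb* and *Dkk2* were higher in high CHIR on all 3 dates (mean log2 changes 0.46 and 1.24). *Axl* was higher there on 2 dates and *Fzd4* on 1. Of these genes, all lower in high CHIR in α-catenin KO, *Etv1*, *Rdh10*, *Fzd4*, *Bmper* and *Dkk2* were called in both date splits. *Fgf1*, *Robo2*, *Hes1*, *Zeb1*, *Axl*, *Frzb* and *Tcf7l1* were called without the first date and not with that date alone (adjusted p 0.063, 0.090, 0.35, 0.13, 0.13, 0.073 and 0.10). *Snai2* was called in neither (0.069 without the first date and 0.089 with it alone).

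Among the rising genes few passed the test over all β-catenin KO samples. *Cdh3* (2.71, adjusted p = 0.035, and 0.069 with the first date alone), *Fzd6* (3.85) and *Col18a1* (1.83, adjusted p = 0.045, and in neither split, with 0.062 without the first date and 0.18 with it alone) were the 3 list members called higher. *Axin2* differed by 2.64 and was not called over all samples (adjusted p = 0.66), but it was called without the first date of β-catenin KO (2.56, adjusted p = 0.001) and with that date alone (2.81, adjusted p = 0.017). The same held for *Wnt4* (4.39 over all samples, 4.99 without the first date and 3.19 with it alone), *Lef1* (3.54, 3.57 and 3.48) and *Notum* (6.04, 6.46 and 5.20). For these 4 genes the choice of β-catenin KO dates changed the call and not the direction.

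Over all genes with a symbol and a mean of at least 100, the largest positive differences from β-catenin KO were those of *Serpinb7*, *Ntsr2*, *Psd2*, *Sv2b* and *Napsa*, and the largest negative ones those of *CJ186046Rik*, *Ch25h*, *Ntsr1*, *Meox2* and *Tgtp2*. *Serpinb7* had 2.31, 33.2 and 139.6 normalized counts at high CHIR in β-catenin KO, against 959.6 and 416 in α-catenin KO. *Napsa*, an aspartic protease gene, rose in α-catenin KO from 11.2 and 17 to 808 and 477, a difference of 5.05 (adjusted p = 0.027). *Tgtp2*, an interferon-induced GTPase gene, fell from 63.7 and 665 to 2.58 and 19.2, a difference of −5.26 (adjusted p = 0.0075). The calls of the 5 positive differences did not hold under many of the 20 alternatives run, being lost in 10 for *Serpinb7* (adjusted p = 0.049 over all samples), 9 for *Ntsr2*, 10 for *Psd2*, 10 for *Sv2b* and 8 for *Napsa*. Each was lost without either low CHIR sample of α-catenin KO and without the date as a block. For the 5 negative differences it was lost in 2 for *CJ186046Rik*, 4 for *Ch25h*, 2 for *Ntsr1*, 0 for *Meox2* and 3 for *Tgtp2*.

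**Figure D5:**
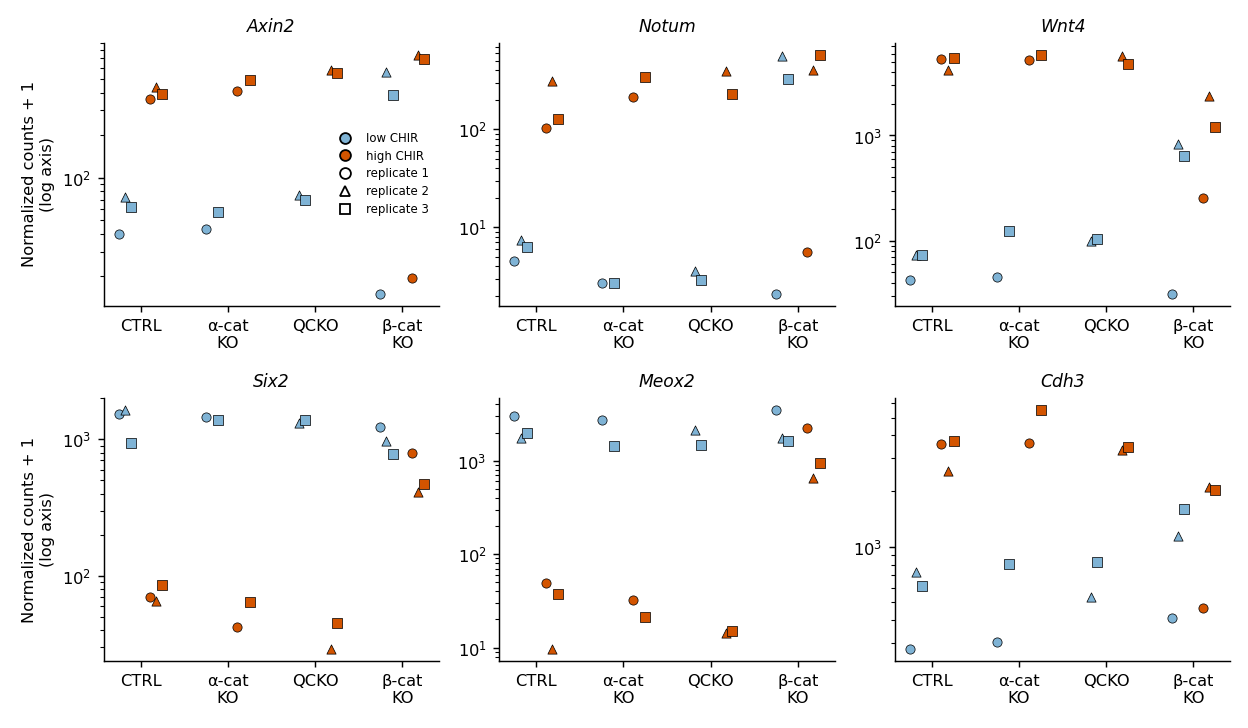
Normalized counts + 1 (log axis) of 6 genes in every sample of the 4 conditions (columns), with blue for low CHIR, orange for high CHIR and the marker shape for the replicate. In CTRL, α-catenin KO and QCKO the CHIR levels are apart for all 6 genes, while in β-catenin KO the first date (circles) lies below the other dates for *Axin2*, *Notum*, *Wnt4* and *Cdh3* and above them for *Six2* and *Meox2* at each CHIR level.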

How the data were processed

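The deposited table holds, per gene and library, a signal that the authors made by dividing read counts by 1 size factor per library. The submitters' processing notes name STAR, Subread featureCounts, Salmon and DESeq2, and list GRCm38 and GRCh38 with no role. Tables of the authors' own comparisons hold fold changes and p-values, which were not used, and gene symbols, which were. Every library's low values were whole multiples of 1 step (100% within a tolerance of 0.1), so reads were recovered from them. In 2 libraries, β-catenin KO in low CHIR of replicate 2 and α-catenin KO in high CHIR of replicate 3, the size factor was 1.00 and 0.992, so values there lie near whole numbers without any scaling and whole values say little about the recovery. Total reads were 18124772 to 28472412, and intervals on reads cover counting error only.

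Samples were grouped by their titles. Tests took genes whose mean normalized count reached 10 and used log2(normalized count + 1) in limma 3.58.1 (lmFit, eBayes with trend, R 4.3.3). The fit held 14 libraries, those of α-catenin KO, CTRL and QCKO (all 20 for the β-catenin KO difference), with group means and the date that the titles give, whose step (culture, sorting or another) they do not name, as a block. Same-date deviations correlated with r = 0.46 between low and high CHIR in α-catenin KO and with a median of 0.19 over 27 pairs of groups and dates, 20 of them over 0.1. A call needed a Benjamini-Hochberg adjusted p under 0.05 together with a log2 fold change beyond 0.5 either way. The paper speaks of biological replicates, without saying whether the cultures came from separate animals. The p-values measure the spread between the samples in the fit, moderated across genes. Named genes were *Ctnna1*, the 12 largest called changes each way (mean of at least 100, no overlap between CHIR levels), called list members (at most 3 each way where over 6 were called) with all cadherins and catenins, the 5 largest called differences each way and the 5 largest date gaps. Other list members named were chosen after their values were seen. The members and lists were chosen with earlier results of these data known.

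Alternatives were edgeR 4.0.16 and DESeq2 1.42.0 on recovered reads, no date block, other pseudocounts (0.25 and 5), filters, normalization, sample sets and fold thresholds, and each sample left out. Scripts were tested on simulated data. Promoter windows came from RefSeq (GRCm38.p6).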

Additional observations from a re-analysis of the deposited data

Results flagged for a closer look

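The response to high CHIR differed between α-catenin KO and β-catenin KO for 158 genes by the test of the difference itself (limma, all 20 samples, the date in the titles as a block). In low CHIR the samples labelled β-catenin KO of replicates 2 and 3 had *Axin2* and *Notum* above every low CHIR sample of CTRL, and the extent of their knockout was not checked. Among the genes named in the report, those with the more negative response in α-catenin KO were *CJ186046Rik* (a difference of the log2 fold changes of −5.83), *Ch25h* (−5.74), *Ntsr1* (−5.50), *Meox2* (−5.30), *Tgtp2* (−5.26), *Nell1* (−5.15), *Hpgd* (−4.85), *Rdh10* (−4.34), *Fgf1* (−4.30), *Crym* (−4.23) and *Osr1* (−4.22). They were followed by *Foxc2* (−3.97), *BC030500* (−3.91), *Six2* (−3.91), *Dkk2* (−3.90), *Tmem100* (−3.56), *Frzb* (−3.29), *Fzd4* (−3.15), *Zeb1* (−2.38), *Bmper* (−2.22), *Robo2* (−2.17), *Etv1* (−2.14), *Wt1* (−2.10), *Eya1* (−1.78), *Axl* (−1.73), *Hes1* (−1.58), *Snai2* (−1.34) and *Tcf7l1* (−1.29). The more positive response in α-catenin KO was that of *Col18a1* (1.83), *Cdh3* (2.71), *Fzd6* (3.85), *Napsa* (5.05), *Sv2b* (5.06), *Psd2* (5.20), *Ntsr2* (6.02) and *Serpinb7* (8.22). The values of *Ntsr1*, *Ntsr2* and *Serpinb7* depend on the pseudocount, since 1 CHIR level of α-catenin KO held at most 3 reads. The calls of *Serpinb7*, *Ntsr2*, *Psd2*, *Sv2b* and *Napsa* were lost in 8 to 10 of 20 alternatives, and *Snai2* and *Col18a1* were called in neither split of the β-catenin KO dates.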

How the results depend on the processing

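The number of genes changed by high CHIR in α-catenin KO was 1186, and 1046 to 1606 with no filter on low values, a pseudocount of 0.25 or 5, quantile normalization, edgeR, DESeq2, a log2 fold change over 1 or all 20 samples. With edgeR 1151 of the same genes were called and with DESeq2 1179. The number was 725 without the date as a block (unpaired), 782 with a mean of at least 100, for which fewer genes were tested, and 2954 with α-catenin KO samples alone in the fit, for which the cause was not tested. It was 467 to 617 without 1 of the 4 samples, with fewer samples. List members called were 89, and 54 to 67 without 1 sample. The differences from CTRL and from QCKO gave 0 genes under every alternative run. The difference from β-catenin KO gave 158 genes, 25 without the date as a block, 428 with DESeq2, 97 with the β-catenin KO samples of the first date alone (chosen after seeing the data), and 27 to 194 without 1 sample. Without the block, list counts also fell by over 1.5 times, namely the Wnt feedback genes called lower (5 to 2), the guidance genes called higher (6 to 3) and lower (2 to 1), and from 2 to 1 the cadherins and Hippo genes called lower and the catenins, junction genes and later nephron genes called higher, and *Meis1* lost its call. List counts moved by as much under other alternatives. With all 20 samples in the fit the Wnt feedback genes called higher fell from 5 to 2, the cadherins called lower from 2 to 1 and the interferon genes from 1 to 0, while p53 targets called lower went from 1 to 3 and matrix genes called higher from 1 to 2. With DESeq2 p53 targets called lower were 4, and 2 with edgeR, and with both tools 2 interferon genes were called. With the α-catenin KO samples alone the counts were higher for p53 targets (6 lower), polarity genes (4 higher), matrix genes (3 higher and 8 lower), BMP and TGF-β genes (5 higher), guidance genes (4 lower) and Hippo genes (2 higher). With a mean of at least 100, Wnt feedback genes called lower were 3 and cadherins 1. The remaining moves of this size were by 1 gene. Of the values of named genes under an alternative, 1270 of the response kept direction and call, 109 kept direction and lost the call, and 1 gained it, and of the differences from β-catenin KO 142 kept and 58 lost the call. Direction turned only for genes not called. *Actn4* was at −0.036 with quantile normalization, −0.32 without the low CHIR sample of replicate 1, −0.029 without the high CHIR sample of replicate 3 and up to 0.50 without another. *Cdh1* was at −0.011 without the low CHIR sample of replicate 1 and up to 1.18 without another. *Ctnna1* was at 0.077 without the low CHIR sample of replicate 3, 0.043 without the high CHIR sample of replicate 1 and down to −0.16 without another. With 2 samples at each CHIR level and genes near 0 reads, small changes of weakly expressed genes were not detectable.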
